A study of Homo sapiens with 6 samples.

Results

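The histone genes examined here were the protein-coding genes with a symbol that starts with HIST1H to HIST4H, which are the replication-dependent genes, together with H2AFX, H2AFZ, H2AFY, H3F3A and H3F3B, which were taken as a polyadenylated comparison. The rule found 71 replication-dependent genes and 5 comparison genes, 76 of the 58676 genes listed. The replication-dependent genes comprised 6 H1, 17 H2A, 18 H2B, 15 H3 and 15 H4 genes, of which 55 belonged to the HIST1 group, 12 to HIST2, 3 to HIST3 and 1 to HIST4. The RNA was sequenced from cells in 2D culture, with 3 libraries of A549 Rec and 3 of A549 MOCK. The parental A549 cells are an established line from a human lung adenocarcinoma. A549 Rec carried a human recoverin cDNA and A549 MOCK carried the empty plasmid. Both lines were therefore transfected, and the study's methods describe retroviral transfer and puromycin selection for both. The methods place the isolation of RNA at confluence, after 6 days of culture by the labels. No source used here states that the replicates were separate cultures, so that p-values measure only the spread between these libraries.

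Histones package DNA, with H2A, H2B, H3 and H4 in the nucleosome core and H1 on the linker DNA. Replication-dependent histone genes are mostly transcribed in S phase, and their mRNAs usually end in a conserved stem-loop, bound by SLBP, in place of a poly(A) tail. Replication-independent histone genes, such as those of H2A.Z, macroH2A and H3.3, are spliced and polyadenylated throughout the cell cycle, while H2AFX is known to give both kinds of transcript. Some replication-dependent genes are also known to give polyadenylated transcripts, in particular in differentiated or non-dividing cells. A library made with oligo(dT) beads therefore reads the tailed transcripts of a gene and largely misses the others.

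The 3′ stem-loop, by which the classes are known to differ, is shown for the replication-dependent genes with a mean TPM of 10 or more, the 7 highest, and for H2AFX. Each window is a stretch of GRCh38 read on the strand of the gene, with the stem-loop in capitals and 5 bases on either side. HIST1H2BK is at chr6:27146361-27146386 (minus strand), HIST1H1C at chr6:26055739-26055764 (minus), HIST1H2BD at chr6:26158582-26158607 (plus), HIST1H4I at chr6:27139649-27139674 (plus), HIST1H2AC at chr6:26124664-26124689 (plus), HIST3H2A at chr1:228457364-228457389 (minus), HIST1H3H at chr6:27810511-27810536 (plus) and H2AFX at chr11:119094893-119094918 (minus). All of them lie in the region 3′ of the stop codon.
HIST1H2BK: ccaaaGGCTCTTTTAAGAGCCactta
HIST1H1C: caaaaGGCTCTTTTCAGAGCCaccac
HIST1H2BD: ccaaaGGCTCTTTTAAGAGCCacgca
HIST1H4I: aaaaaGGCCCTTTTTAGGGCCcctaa
HIST1H2AC: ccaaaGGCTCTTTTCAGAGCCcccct
HIST3H2A: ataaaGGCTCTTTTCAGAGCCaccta
HIST1H3H: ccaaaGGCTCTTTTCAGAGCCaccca
H2AFX: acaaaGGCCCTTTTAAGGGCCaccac
Of the 71 replication-dependent genes, 66 were found by ID in GENCODE v44, and all 66 held a match to the histone 3′ stem-loop consensus of 16 bases, on the strand of the gene, within 150 bases after the stop codon. The match began 22 to 62 bases after the stop codon (median 35). It took 10 forms, of which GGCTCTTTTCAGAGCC was found in 36 genes, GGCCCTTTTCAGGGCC in 10 and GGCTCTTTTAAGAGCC in 10. Among the comparison genes, 1 of 5 held a match, which was H2AFX. In the same window of 19962 other protein-coding genes, 6 genes (0.0301%) held a match, and 5 of those 6 were histone genes that the annotation lists under other IDs. The poly(A) hexamers AATAAA or ATTAAA were found, on the strand of the transcript, in the last 50 bases of the canonical transcript of 3 of the 66 genes (HIST2H2BE, HIST1H4J and HIST1H2BH), of 4 of the 5 comparison genes and of 77.6% of the other genes. An AATAAA within 100 bases after the stop codon was held by 3 of the 66 genes and by 8.57% of the other genes. In HIST1H1C and HIST1H2BD, which are 2 of these 3, it began 12 bases after the stem-loop. All 66 genes had 1 exon in their canonical transcript. A match is a description of these letters and does not show how a transcript ends.

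The deposited values were TPM, reads per gene length scaled to 1000000 per library. Reads recovered from them came to 15178606 to 18564428 per library (median 15457750). RCVRN, the transfected gene, had a listed TPM of 0 throughout A549 MOCK and of 322, 338 and 339 across the A549 Rec libraries. The epithelial keratins KRT8 and KRT18 ranged from 1925 to 3361, whereas EPCAM reached 2.98 at most, the fibroblast markers COL1A1 and COL3A1 5.14 and 0.111, and the leukocyte marker PTPRC 0.0866. Genes encoded by mitochondrial DNA took 34.5% (A549 MOCK) and 26.9% (A549 Rec) of the TPM of replicate 3, and 13.3% to 17.3% of that of the other libraries. This lowers the TPM of the remaining genes in both replicate 3 libraries.

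The replication-dependent genes as a class were low, and their signal came from a few genes. Of the 71 genes, 58 had a read in any library, 32 had a mean TPM over the 6 libraries of at least 1, 7 of at least 10, and 2 of at least 100, which were HIST1H2BK and HIST1H1C. The share with a mean TPM of at least 1 was 45.1%, beside 60.9% of all 19922 protein-coding genes. The median of the mean TPM was 0.472 in the replication-dependent genes and 171 in the comparison genes. HIST1H2BK alone made up 40.3% of the summed TPM of the class, and the 5 highest genes made up 80.0%. In these bulk samples, fewer cells in S phase and less histone RNA per cell cannot be told apart. Neither can be separated from a loss of transcripts without a tail in RNA selection, or from the reach of the gene models described below. In a given library, 39 to 44 of the 71 genes had a read. The replication-dependent genes together took 2381 to 2881 reads per library, and the comparison genes 13969 to 18803. As a share of all reads, the class held 0.0154% in A549 MOCK replicate 1 (95% Wilson interval 0.0149% to 0.0161%) and 0.0163% in A549 Rec replicate 3 (0.0157% to 0.0170%), which were the lowest and the highest of the 6 libraries. These intervals, and all read floors below, cover counting error only.

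**Figure D1:**
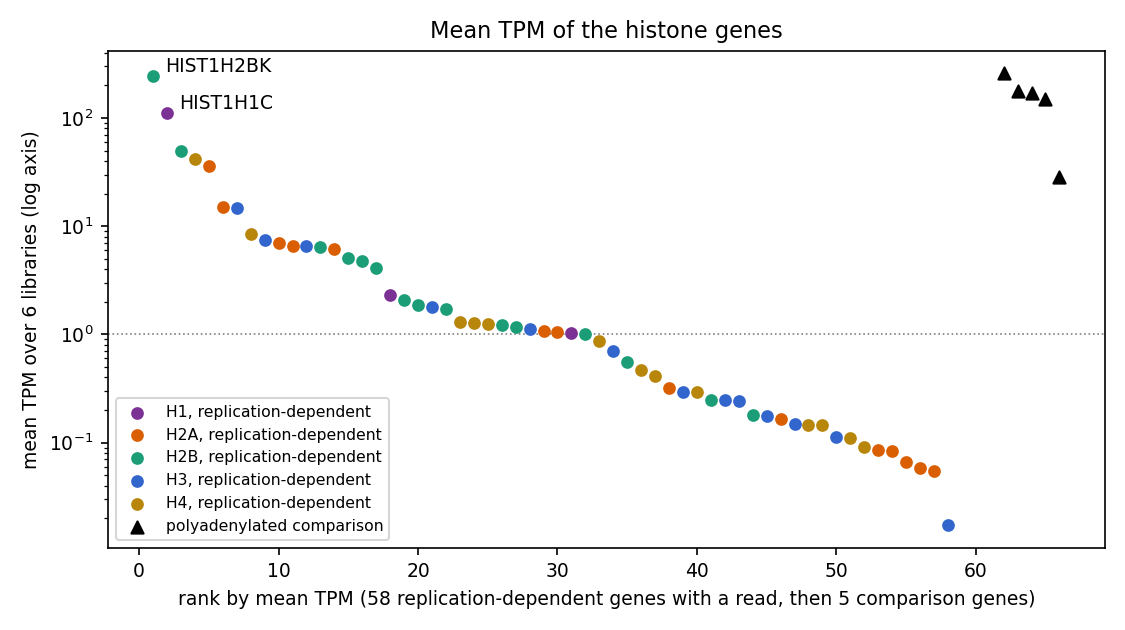
Mean TPM over the 6 libraries (log axis) of the 58 replication-dependent genes with a read, ordered from highest to lowest and coloured by histone family, and of the 5 comparison genes (black triangles). The first 2 genes stand above 100, 32 lie at or above the dotted line at 1, and the comparison genes lie between 28.4 and 259.

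The H1 family was nearly all HIST1H1C, the linker histone H1.2. Its TPM in the A549 MOCK libraries was 118, 113 and 102, and in the A549 Rec libraries 110, 119 and 101 (replicates in the order 1, 2, 3 here and below). Both groups overlapped, and in both the replicate 3 library was the lowest. HIST1H1C held 97.1% of the summed TPM of its family, HIST1H1D and HIST1H1E had a mean TPM of 2.30 and 1.03, and the remaining 3 genes were listed at 0 throughout. The table places HIST1H1C (ENSG00000187837) on chromosome 6 from 26055787 to 26056428, a model of 642 bases that ends before the stem-loop.

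HIST2H2AC, HIST3H2A and HIST1H2AC were the leading H2A genes, which encode the core histone that pairs with H2B. HIST1H2AC (ENSG00000180573) had a TPM of 33.7, 32.7 and 41.6 across the A549 MOCK libraries and 34.9, 31.9 and 42.6 across those of A549 Rec, so that the replicate 3 library was the highest of each group. HIST3H2A, the highest of the HIST3 group on chromosome 1, was at 17.7, 14.3 and 16.5 across the A549 MOCK libraries and at 14.1, 14.5 and 13.8 across those of A549 Rec. HIST2H2AC, the highest of the HIST2 group, was at 6.62, 12.0 and 4.57 and at 10.3, 3.95 and 4.38, from 9 to 23 reads per library. The H2A genes summed to a TPM of 67.6 to 80.3 per library.

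The H2B family was the largest by level, at 53.7% of the summed TPM, and 75.1% of it was HIST1H2BK. HIST1H2BK (ENSG00000197903) had a TPM of 261, 263 and 187 across the A549 MOCK libraries and of 248, 252 and 241 across those of A549 Rec. Replicate 3 of A549 MOCK was the lowest library, and the other 5 spanned only 241 to 263. These values rested on 400 to 561 reads over a model of 381 bases on chromosome 6 from 27146418 to 27146798, which equals the coding sequence with its stop codon. HIST1H2BK ranked 369th of all protein-coding genes by mean TPM, beside the 348th place of H2AFZ. These ranks rest on unlike lengths, 381 bases for HIST1H2BK and 2303 for H2AFZ, against canonical transcripts of 495 and 866 bases. Over all 6 libraries, HIST1H2BK had 2910 reads and H2AFZ 18865. HIST1H2BD (ENSG00000158373) followed at 46.3, 55.7 and 36.8 across the A549 MOCK libraries and at 63.4, 54.0 and 41.6 across those of A549 Rec. Its model has 871 exonic bases in a span of 13204, and the span overlaps the listed pseudogene LARP1P1 on its strand. Whether their exons overlap, so that reads could have been split in counting, was not tested. The other 16 H2B genes had a mean TPM of at most 6.40 (HIST2H2BE).

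The H3 genes had the lowest summed TPM of the core families. HIST1H3H had a TPM of 16.4, 14.6 and 11.7 across the A549 MOCK libraries and of 14.7, 19.0 and 11.4 across those of A549 Rec, and HIST1H3E had 6.60, 8.41 and 8.18 and 6.80, 6.58 and 8.22. All 15 replication-dependent H3 genes summed to 30.5 to 36.8 per library. H3F3A and H3F3B, which encode the replacement histone H3.3, summed to 283 to 379, and were 8.87-fold to 12.1-fold higher in each library. HIST1H4I (ENSG00000276180) led the H4 genes at 48.3, 45.0 and 27.3 across the A549 MOCK libraries and at 46.9, 46.0 and 38.6 across those of A549 Rec, again with the lowest value of each group in replicate 3. HIST1H4H had a mean TPM of 8.52, and HIST4H4, the only HIST4 gene, lay at 0.787 to 2.06.

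**Figure D2:**
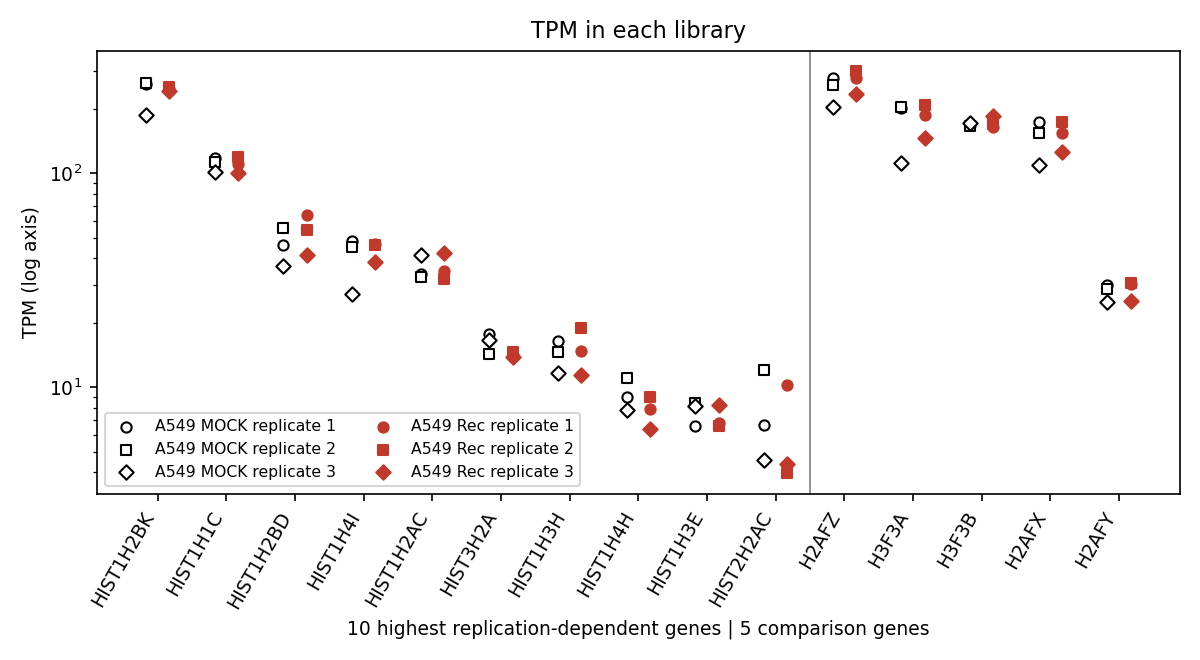
TPM (log axis) in each library of the 10 replication-dependent genes with the highest mean TPM (left of the line) and of the 5 comparison genes (right), with A549 MOCK in open and A549 Rec in red symbols, and the replicate by symbol shape. The 2 groups overlap in every gene, and replicate 3 (diamonds) is low in HIST1H2BK of A549 MOCK at 187 and high in HIST1H2AC at 41.6 and 42.6.

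At the lower end, 32 of the 71 genes had at most 3 reads in every library. The 13 genes listed at 0 in all 6 libraries were HIST1H1A, HIST1H1B, HIST1H1T, HIST1H2AA, HIST1H2AD, HIST1H2AM, HIST1H2BA, HIST1H2BB, HIST1H2BM, HIST1H3D, HIST2H3PS2, HIST1H4F and HIST1H4L. HIST1H1T, HIST1H2AA and HIST1H2BA among them are known from the testis. For a model of 381 bases, a count of 0 allows a TPM of up to 1.35 to 1.6, depending on the library. How the authors treated multi-mapping reads is not given in the sources used here, so that 0 is what is listed and not proof of absence. In 9 of the 66 genes, at least 50% of the 100-base windows of the coding sequence occurred elsewhere in GRCh38, and for these the counting could have split or dropped reads. They were HIST1H2AI, HIST1H2AJ, HIST1H4J, HIST1H4K, HIST2H3A, HIST2H3C, HIST2H3D, HIST2H4A and HIST2H4B, and the highest had a mean TPM of 6.63 (HIST1H2AI). Below this cut, the share was 27.6% in HIST1H2BK, and reads of that gene could also have been split or dropped in part. It was 0% in HIST1H1C, HIST1H2BD, HIST1H4I and HIST1H2AC. By their listed spans, HIST1H2BN overlaps HIST1H2AK and HIST1H2AL, and HIST1H3J overlaps HIST1H2AM.

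The levels also differed with how far the gene model of the table reaches, which is an annotation choice that sets where reads are counted. In 35 of the 66 genes the model ended before the end of the stem-loop (in 2 of these inside it), in 6 it ended within 200 bases past it, and in 25 it reached further. The median of the mean TPM was 0.164, 0.740 and 1.86 in this order. A mean TPM of at least 1 was found in 10 of the 35, 3 of the 6 and 17 of the 25 genes, and 12 of the 35 were listed at 0 throughout, against 0 of the 25. HIST1H2BD, HIST1H4I and HIST1H2AC belonged to the genes with the longer models, while HIST1H2BK and HIST1H1C had models without the stem-loop. Reads past the coding sequence of those 2 genes were not counted. The cut of 200 bases was set with the values known, and whether the models account for the levels was not tested.

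**Figure D3:**
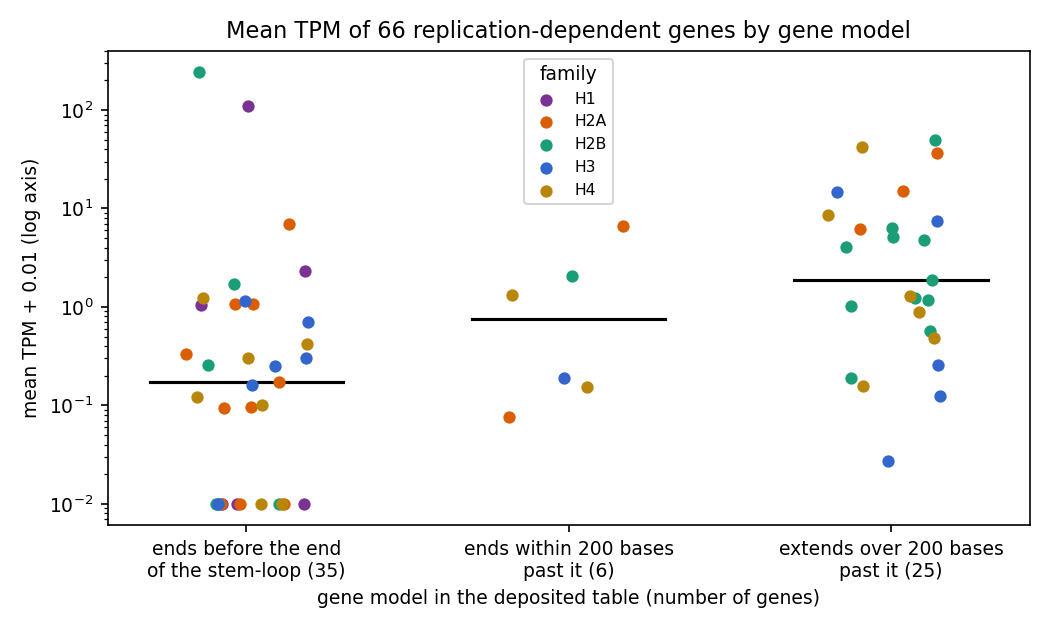
Mean TPM plus 0.01 (log axis) of 66 replication-dependent genes by the reach of the gene model in the deposited table, coloured by family, with the median of each class as a black line. The medians are 0.164, 0.740 and 1.86 (0.01 is added in the plot), and the 12 genes at the bottom are listed at 0.

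The 5 comparison genes were high throughout. H2AFZ, which encodes the variant H2A.Z, had a TPM of 278, 257 and 203 across the A549 MOCK libraries and of 279, 301 and 235 across those of A549 Rec. H2AFX, which encodes the variant phosphorylated at DNA breaks, had 174, 154 and 109 and then 154, 174 and 125. H2AFY, which encodes macroH2A1, was the lowest, at no more than 30.8. H3F3A had 202, 203 and 112 across the A549 MOCK libraries and 187, 208 and 145 across those of A549 Rec, whereas H3F3B had 169, 167 and 171 and then 164, 170 and 184. H3F3A was thus lowest in replicate 3 of each group, where H3F3B was highest. In H3F3A, 87.4% of the 100-base windows of the coding sequence also occur elsewhere in the genome, and its value is uncertain for that reason.

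Summed over genes, the replication-dependent class had a TPM of 627, 637 and 508 across the A549 MOCK libraries and of 629, 620 and 579 across those of A549 Rec, that is 591 ± 71.6 and 609 ± 26.7 (SD, n = 3 each). The comparison genes had 853, 809 and 620 across the A549 MOCK libraries and 814, 884 and 715 across those of A549 Rec. In each library the 5 comparison genes together exceeded the 71 replication-dependent genes, by 1.22-fold to 1.42-fold. The ratio rested on few genes, since without the 5 highest replication-dependent genes it was 5.45-fold to 7.52-fold. It also rested on the lengths behind the TPM, which were 17730 bases for H2AFY and 2303 for H2AFZ, against canonical transcripts of 1917 and 866 bases. With the recovered reads divided by the canonical GENCODE v44 lengths, the comparison genes were 1.98-fold to 2.35-fold higher. This is not a corrected ratio, since the reads were still counted over the deposited models. HIST1H4I, for example, was counted over 1294 bases and divided by 397. The 5 replication-dependent genes not found by ID have no canonical length.

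**Figure D4:**
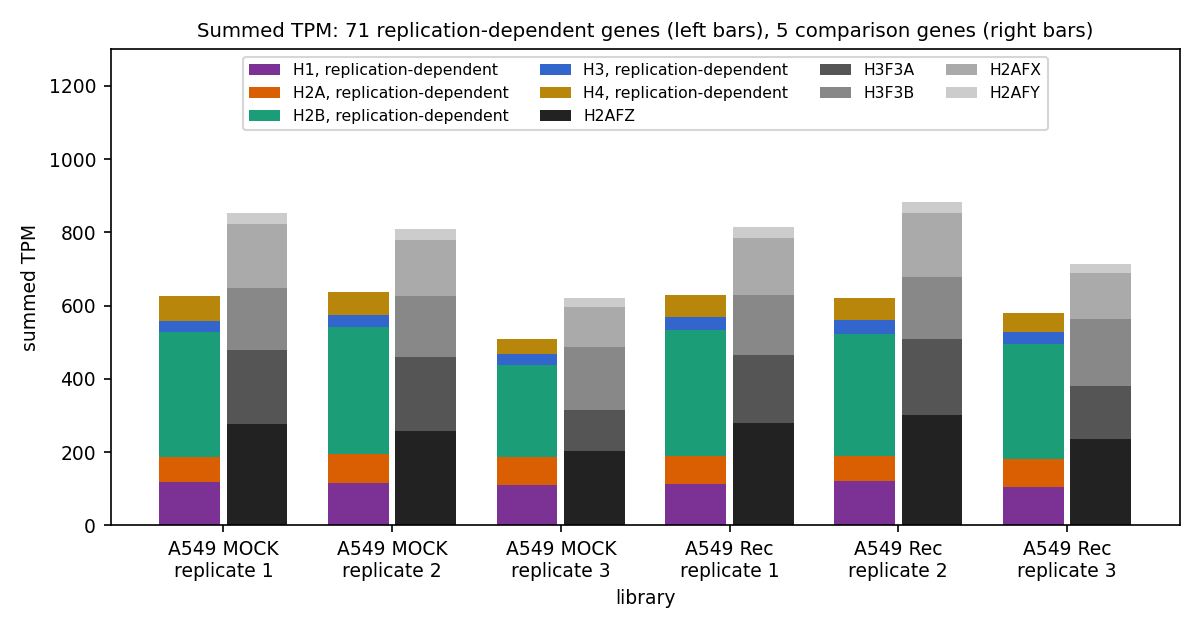
Summed TPM per library of the 71 replication-dependent genes (left bars, stacked by family) and of the 5 comparison genes (right bars, stacked by gene). The right bar is the taller of the pair in all 6 libraries, and H2B, which is mostly HIST1H2BK, forms the largest piece of each left bar.

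The sources describe the selection of the RNA differently. The labels name total RNA and a directional library kit, while the study's methods name a poly(A) isolation module, which captures tailed RNA, and describe the step as depletion of rRNA. Other RNAs known to lack a poly(A) tail were therefore read beside the histone genes. Of 25 such genes, including those of spliceosomal, Y, vault and telomerase RNA, 24 had a mean TPM under 1 and 16 were listed at 0 throughout. The exception was RN7SL2, the RNA of the signal recognition particle, at 127 to 249, while RN7SL1 was listed at 0. How size selection and reads that map to several places bear on these RNAs was not tested. By contrast, 10 polyadenylated reference genes had a median TPM of 780, from GAPDH at 5053 to TBP at 17.5 (means over the 6 libraries). Of 10 further replication-independent histone genes, 6 had a mean TPM over 1, with a mean TPM of 347 for H1F0 and 346 for H1FX (linker histones), 105 for H2AFJ and 39.8 for CENPA, the centromeric H3, while H3F3C was at 0.622 and H2BFM, H2BFWT and H2AFB1 were listed at 0. Which selection gave these levels was not tested, as no library of another selection was compared.

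A549 Rec and A549 MOCK were then compared, to see whether histone genes changed with recoverin. No difference in a histone gene passed the test. In limma on log2(TPM + 1), a call needed a 2-fold change and a p under 0.05 after Benjamini-Hochberg adjustment. Of the 17408 genes tested, 1 was called (0.00574%), which was RCVRN. The study itself used DESeq2 on read counts and reported more differing genes at this fold change and adjusted p. The counts of calls here therefore belong to the limma test only. The genes tested included 30 of the 71 replication-dependent genes and all 5 comparison genes, and 0 of these 35 were called, with adjusted p = 0.9997 for each. With an unadjusted p under 0.05, 1 of the 35 was counted by limma and 1 by limma voom on the recovered reads, beside 2.06% and 1.72% of all genes tested. The libraries of both groups did not overlap in 1 of the 35, beside 5.16% of all genes tested. The filter on low TPM selects genes by their level, and the 41 replication-dependent genes that failed it were 13 without a read and 28 with 1 to 40 reads over all 6 libraries.

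The differences of the leading genes were small beside the spread of the libraries. HIST1H2BK was at a TPM of 237 ± 43.0 across the A549 MOCK libraries and 247 ± 5.52 across those of A549 Rec (SD, n = 3 each), and its log2 difference (A549 Rec minus A549 MOCK, on the log2(TPM + 1) scale) was 0.08, with a 95% interval of -0.30 to 0.46. HIST1H1C was at 111 ± 8.45 and 110 ± 9.19 (SD, n = 3 each), and its log2 difference was -0.02 (-0.30 to 0.27). Both intervals lie within a 2-fold change in either direction. HIST1H2BD had a log2 difference of 0.19 (-0.29 to 0.67), HIST1H4I of 0.16 (-0.36 to 0.68) and HIST1H2AC of 0.02 (-0.34 to 0.37). In the exact permutation test on TPM (two-sided, smallest possible p = 0.1), these 5 genes had p between 0.5 and 1. The lower level of HIST3H2A in A549 Rec, 14.1 ± 0.376 against 16.2 ± 1.75 (SD, n = 3 each), had a log2 difference of -0.18 (-0.44 to 0.09), and HIST1H3H of 0.06 (-0.42 to 0.53). The interval lay within a 2-fold change for 21 of the 30 replication-dependent genes and all 5 comparison genes.

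For the comparison genes, the log2 difference was 0.15 (-0.25 to 0.54) for H2AFZ, 0.10 (-0.52 to 0.72) for H3F3A, 0.06 (-0.43 to 0.55) for H2AFX, 0.04 (-0.26 to 0.33) for H2AFY and 0.03 (-0.22 to 0.29) for H3F3B. All 5 lay above 0, as did 18 of the 30 replication-dependent genes and 56.6% of all genes tested. The median log2 difference was 0.05 in the replication-dependent genes and 0.06 in the comparison genes, beside 0.02 over all 17408 genes. The log2 ratio of the summed TPM of the replication-dependent genes was 0.05. Without the replicate 3 library of A549 MOCK it was -0.05, and the median of the replication-dependent genes was -0.06, so that the direction of both rested on that library.

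**Figure D5:**
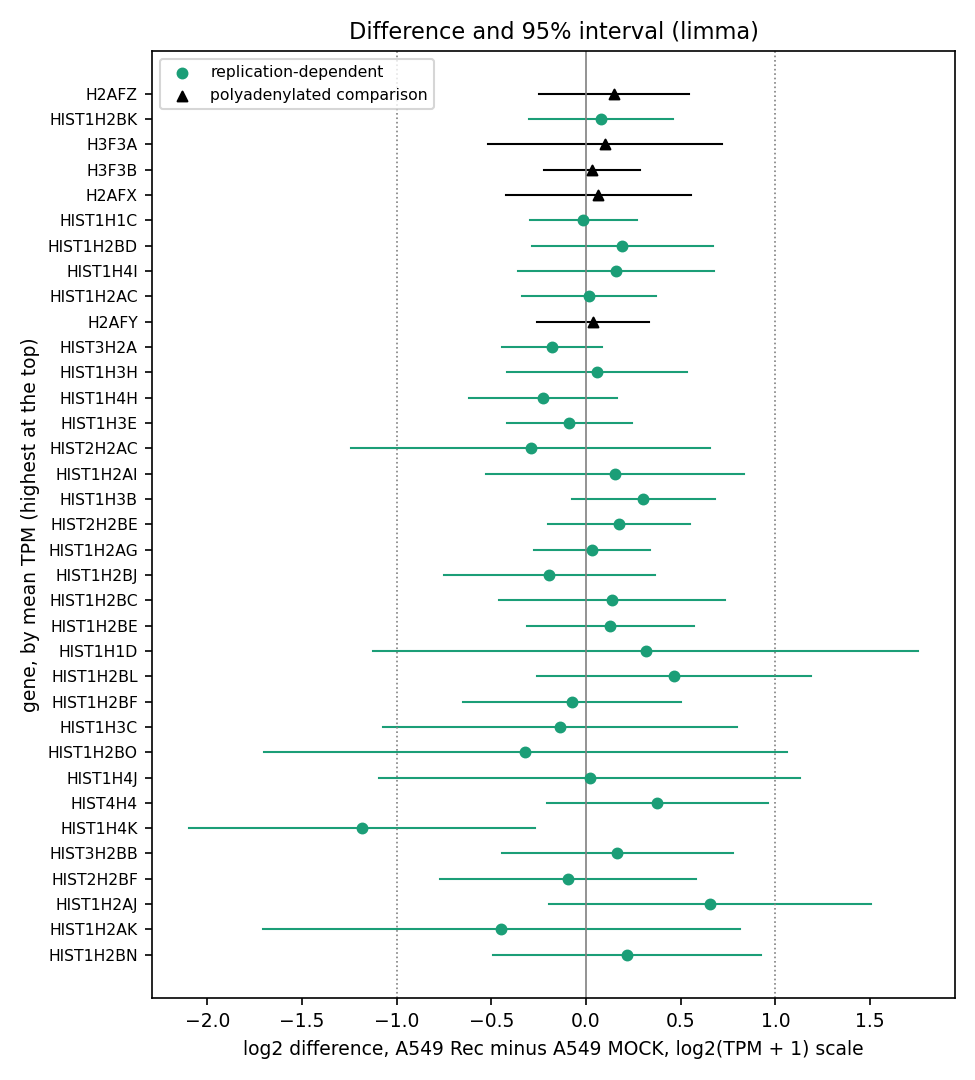
Log2 difference (A549 Rec minus A549 MOCK, log2(TPM + 1) scale) with its 95% interval from limma for the 30 replication-dependent genes (green circles) and 5 comparison genes (black triangles) tested, ordered by mean TPM. All intervals but that of HIST1H4K hold 0, the dotted lines mark a 2-fold change on this scale, and the widest intervals belong to genes with few reads.

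The largest fitted differences belonged to genes with few reads. HIST1H4K had 4, 2 and 4 reads across the A549 MOCK libraries and 2, 0 and 0 across those of A549 Rec, a TPM of 2.55, 1.30 and 2.28 against 1.28, 0 and 0. It was the gene with an unadjusted p under 0.05 by limma and without overlap of the groups. Its fitted log2 difference was -1.18 (-2.10 to -0.27). With at most 3 reads in every A549 Rec library, HIST1H4K was at the read floor in that group. Neither this difference nor the ratio that follows is therefore read as a fold. The ratio of its reads per library total, pooled over the libraries of each group, was 0.190. The 95% counting interval of 0.0202 to 0.892 leaves out the spread between libraries. Every window of the HIST1H4K coding sequence occurs elsewhere in the genome. Without the replicate 2 library of A549 Rec, no histone gene had an unadjusted p under 0.05. HIST1H2BO, with 6, 4 and 1 reads against 6, 3 and 0, had a log2 difference of -0.32 (-1.70 to 1.06). HIST1H2AK had 0, 5 and 4 reads against 2, 0 and 2. HIST1H2AJ had 0, 3 and 1 reads against 3, 3 and 3, at the floor of 3 reads in both groups, so that no fold is given. HIST1H2BL, with 2, 6 and 4 reads against 4, 7 and 9, had a log2 difference of 0.47 (-0.26 to 1.19), and HIST4H4, with 17, 10 and 12 reads against 13, 31 and 23, had 0.38 (-0.20 to 0.96). In 4 of the 30 genes a group was at this floor, and the median log2 difference of the other 26 was 0.07. Among the genes not tested, HIST1H3F had 0, 1 and 0 reads against 4, 2 and 2. It was named after its values were seen and was at the floor in A549 MOCK, so that no fold is given.

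The replicate 3 libraries stood apart from the others in some histone genes. Before rescaling, the TPM of both replicate 3 libraries lay below that of all other libraries in 7 of the 30 replication-dependent genes and 4 of the 5 comparison genes, and above it in 3 and 1, beside 44% of all 17408 genes tested below and 6.4% above. After rescaling the TPM without mitochondrially encoded genes, the numbers were 2 and 2 below and 6 and 1 above, beside 14.7% and 27.4% of all genes tested. No share is read as particular to the histone genes. HIST1H2AC was then at 63.5 and 58.2 in the replicate 3 libraries against 36.8 to 42.2 in the others. H3F3B was at 262 and 252 against 195 to 198, while H3F3A was at 171 and 199 against 226 to 241. HIST1H1C lay on the low side before and on the high side after rescaling, at 155 and 138 against 133 to 137, and the replicate 3 libraries of HIST1H2BK lay on either side of the others, at 286 and 330 against 291 to 311. These genes were named after their values were seen, and no test was made. The part of the mitochondrial share in these levels was not tested beyond this rescaling.

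The machinery of replication-dependent histone mRNA ranged in mean TPM from 2.48 (LSM11) to 486 (SNRPB), and did not pass the test in any member. SLBP, the stem-loop binding protein, was at a TPM of 72.6 ± 13.6 across the A549 MOCK libraries and 67.9 ± 9.53 across those of A549 Rec (SD, n = 3 each). LSM10 and LSM11, of the U7 particle that guides cleavage after the stem-loop, had a mean TPM of 34.7 and 2.48, the endonuclease CPSF3 61.0, and NPAT, the activator at histone loci, 6.31. All 20 genes of this list were tested, and limma called 0, with 0 at an unadjusted p under 0.05. By limma voom, 0 were called and 1 had an unadjusted p under 0.05 (SNRPG, named after its value was seen, log2 difference -0.19, adjusted p = 0.9997), beside 1.72% of all genes tested. The list's median log2 difference was 0.00.

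Chaperones and S-phase genes likewise gave no call. Of 21 histone chaperone genes, 19 were tested, with SSRP1, a subunit of FACT, at a mean TPM of 175 and NASP at 37.9. The other two, DAXX and IPO4, were listed at a mean TPM of 0.0611 and 0.215. Of 25 S-phase genes, all were tested, with PCNA, the sliding clamp, at 636 and MCM7 of the replicative helicase at 162. In both lists limma and limma voom called 0 genes, with 0 at an unadjusted p under 0.05, and the median log2 difference was 0.03 and 0.00. The same counts of 0 held for the 6 tested of 10 further replication-independent histone genes, with a median of 0.07.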

How the data were processed

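RNA was isolated from 2D cells of A549 Rec and A549 MOCK (3 replicates each, grouped by the labels). The authors trimmed the reads (Trimmomatic), mapped them with HISAT2 and counted them with featureCounts 1.6.3. The authors deposited TPM, with no further normalization between libraries. The methods name GRCh38, as do the coordinates of the table, although the submitters' notes name mouse builds. The annotation release, the strand setting and the treatment of multi-mapping reads are not given in the sources used here. Reads were recovered as whole multiples of a step per library (tolerance 0.01), and the recovery was tested on simulated data. A wrong recovered length scales all reads of a gene alike.

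The test was limma 3.58.1 (trend) in R 4.3.3 on log2(TPM + 1), restricted to genes that reached a TPM of 1 in 3 libraries or more. The pseudocount of 1 understates the change of low genes. The members and lists were chosen with earlier results of these data known. The genes named were the 10 highest replication-dependent genes, the highest of each family and locus group, and the comparison genes. The 3 largest differences in each direction were also named. Genes named from the lists are examples and not always the highest of their list. Same-numbered libraries deviated together from their group means (correlation 0.115, 0.164 and 0.342 over 17408 genes), and the replicate block was an alternative. These values do not establish a pairing. Deviations cancel within a group, so that a shared shift of replicate 3 can make the other correlations positive too. Differently numbered libraries were not compared. The other alternatives are given in the closing section.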

Additional observations from a re-analysis of the deposited data

How the results depend on the processing

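With the replicate block, which treats same-numbered libraries as pairs, 0 histone genes were called, as without the block. The count was also 0 under each alternative run. These were a pseudocount of 0.1, no filter, rescaling without mitochondrially encoded genes, quantile normalization, limma without trend and limma voom. The others were no fold change threshold and each library left out in turn (0 to 0). The block changed no other call. The median log2 difference of the replication-dependent genes, 0.045, ranged from -0.059 to 0.084 with each library left out in turn, and that of the comparison genes, 0.06, from -0.04 to 0.21. The log2 ratio of the summed TPM of the replication-dependent genes, 0.05, ranged from -0.05 to 0.10, and was -0.02 without the replicate 3 libraries, an alternative chosen after seeing the data. The mean log2 ratio of the summed TPM of the replication-dependent to the comparison genes, -0.38, ranged from -0.40 to -0.35 with a library left out. It moved to -2.70 without the 5 highest genes and to -1.11 with canonical lengths, both chosen after seeing the data.

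Of 147 log2 differences of 21 named genes under the other alternatives, 6 changed sign, in 3 genes. Leaving out the filter or the trend, or adding the replicate block, cannot change a log2 difference in this balanced design. Values from such fits could not change sign, so that they are no sign of stability. Rescaling without mitochondrially encoded genes gave H3F3B -0.013, HIST1H2AC -0.028 and H2AFY -0.0068, quantile normalization gave H3F3B -0.015 and HIST1H2AC -0.018, and limma voom gave HIST1H2AC -0.012. With a library left out, 19 of 123 changed sign, in 11 genes. Over these fits HIST1H2BK ranged from -0.082 to 0.16, HIST1H1C from -0.076 to 0.046, HIST1H4I from -0.093 to 0.31, HIST1H2AC from -0.097 to 0.12, HIST1H3H from -0.11 to 0.23, HIST2H2AC from -0.67 to 0.040 and HIST1H2BO from -0.80 to 0.23. H3F3A ranged from -0.18 to 0.25, H2AFX from -0.13 to 0.21, H3F3B from -0.015 to 0.069 and H2AFY from -0.040 to 0.12. The cause of these moves was not tested. Depth limits the low genes, since 9 of the 30 replication-dependent genes tested had fewer than 20 reads in every library.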
